A study of Homo sapiens with 28 samples.

Results

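The hypoxia and glycolysis genes described here are a list of 40 genes chosen for their known function: the oxygen-sensitive subunit of the hypoxia-inducible factor (HIF) and its oxygen sensors, glucose transporters and glycolytic enzymes, and textbook targets of HIF. All 40 had a probe set on the array, out of 11676 genes measured, and each was read on the probe set with the highest mean over the 28 arrays. RNA came from whole cultures of 7 established lines of acute myeloid leukaemia (AML), namely GDM1, SKM1, SKNO1, SHI1, MOLM13, NOMO1 and THP1, obtained from public cell banks or a commercial supplier. In each line the treated group received 1 µM GSK3484862, which blocks DNMT1, the enzyme that copies DNA methylation onto new strands, and the vehicle group received 0.1% DMSO, both for 96 hours. Each of the 14 groups had 2 arrays, given as biological duplicates by the series design, and each line stands for a single established culture.

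HIF is a transcription factor pair whose alpha subunit, HIF1A, is made all the time and destroyed while oxygen is present: the prolyl hydroxylases EGLN1 and EGLN3 mark the protein for the VHL ubiquitin ligase. When oxygen falls, HIF accumulates and switches on glucose uptake, glycolysis, lactate production, brakes on mitochondrial pyruvate use, and secreted factors such as VEGFA. Leukaemia cells also run glycolysis in normal oxygen, where MYC drives many of the same enzymes. The arrays measured RNA only, so HIF1A protein, its hydroxylation and glycolytic flux were not measured.

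Because the list includes textbook targets of HIF, the 250 bases upstream of the outermost RefSeq start site (GRCh38.p14) were searched for HIF core letters. These were ACGTG and GCGTG on both strands, which read CACGT and CACGC where the match is on the other strand. CACGTG, which reads ACGTG on either strand, was counted on both. Promoters were listed for 36 of the 40 members, and 24 of the 36 (66.7%) held at least 1 match, against 43.1% of all 27305 listed promoters and 57.4% of the 9563 whose genes were tested. The median number of CpG dinucleotides in the window was 24.5 in the members, against 10 in all promoters and 21 in those of genes tested. A match is a description of these letters and not a measured site. Among called members with a promoter listed, 8 of 12 that fell and 3 of 4 that rose held a match. PFKM, PFKP, PDK1 and SLC2A1, which fell, and HK1, which rose, held none in the window searched. HK1 and PFKM have 7 listed start sites each, PFKP 4, PDK1 2 and SLC2A1 1. Only the outermost start site was searched, so windows at their other start sites may hold the letters. The windows of 5 called members that hold the letters are shown, with matches in capitals: AK4, BNIP3 and HK2, which fell, and ALDOC and ENO2, which rose.
AK4 (chr1:65147302-65147551, plus strand): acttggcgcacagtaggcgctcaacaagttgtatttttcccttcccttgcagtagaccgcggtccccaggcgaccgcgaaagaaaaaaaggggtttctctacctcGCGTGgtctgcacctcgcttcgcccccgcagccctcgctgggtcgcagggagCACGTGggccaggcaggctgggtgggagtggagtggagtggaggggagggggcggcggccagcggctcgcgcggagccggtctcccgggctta
BNIP3 (chr10:131981924-131982173, minus strand): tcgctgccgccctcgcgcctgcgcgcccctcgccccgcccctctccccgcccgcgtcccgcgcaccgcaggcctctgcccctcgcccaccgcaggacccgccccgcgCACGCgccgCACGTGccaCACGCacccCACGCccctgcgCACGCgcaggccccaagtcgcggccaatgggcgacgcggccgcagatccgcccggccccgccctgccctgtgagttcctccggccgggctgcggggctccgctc
HK2 (chr2:74833877-74834126, plus strand): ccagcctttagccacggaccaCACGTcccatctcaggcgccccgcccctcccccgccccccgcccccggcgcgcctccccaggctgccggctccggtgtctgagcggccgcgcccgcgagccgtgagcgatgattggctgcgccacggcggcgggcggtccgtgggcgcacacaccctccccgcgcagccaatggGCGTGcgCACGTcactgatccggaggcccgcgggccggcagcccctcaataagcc
ALDOC (chr17:28576896-28577145, minus strand): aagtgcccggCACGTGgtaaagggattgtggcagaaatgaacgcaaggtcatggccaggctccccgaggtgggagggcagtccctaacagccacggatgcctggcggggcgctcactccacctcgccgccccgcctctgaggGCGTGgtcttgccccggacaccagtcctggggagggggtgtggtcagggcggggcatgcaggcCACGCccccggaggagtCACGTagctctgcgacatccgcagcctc
ENO2 (chr12:6914330-6914579, plus strand): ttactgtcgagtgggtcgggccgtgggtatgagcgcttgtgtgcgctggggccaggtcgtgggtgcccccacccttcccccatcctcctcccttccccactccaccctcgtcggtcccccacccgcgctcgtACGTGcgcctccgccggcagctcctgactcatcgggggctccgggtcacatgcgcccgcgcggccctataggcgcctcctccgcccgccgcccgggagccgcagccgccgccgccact
The AK4 window held 2 matches to ACGTG and 1 to GCGTG, and that of BNIP3 held 2 and 4. In the others the counts were 2 and 1 for HK2, 3 and 2 for ALDOC, and 1 and 0 for ENO2.

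The log2 signals ran from 2.13, the floor of the deposited values, to 16.8, and array medians from 8.33 to 8.51. Duplicates had a Pearson r of 0.990 to 0.998 over the genes (not independent points), and the SD of a single array had a median of 0.13, so the number of arrays limits the precision. Leucocyte and myeloid genes were present in every array, with PTPRC (CD45) at 11.2 to 13.5, LAPTM5 at 13.9 to 15.2 and SPI1 (PU.1) at 8.85 to 10.5. The summed log2 level of the 12 measured myeloid markers, of 14 listed, ran from 136 to 153 in treated arrays, against 126 to 150 in DMSO arrays. On average 9 of the 12 rose (75%, against 23.2% of all genes) and KIT fell (8.33%, against 28.6% of all genes). Of 15 markers of other cell types 5 were measured and the others are not analysed here. Their sum ran from 29.9 to 46.5 in treated arrays, against 27.8 to 43.8 in DMSO arrays. CD3D, KRT8 and PECAM1 rose (60% of the 5), NCAM1 fell (20%) and COL1A1 did not pass the test. The part of these marker changes in the results below was not tested.

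The first comparison asked which members changed with the inhibitor when the 7 lines were averaged. AK4 fell by 1.31 on the log2 scale, PFKM by 0.52 and BNIP3 by 0.49, and ENO2 and ALDOC rose by 0.70 and NDRG1 by 0.66. The averages of 22 of the 40 members (55%) lay within 0.1 of zero, against 38.7% of all genes. An average near zero can hold opposite changes: 8 of the 22 were called in at least 1 line, among them PGM1 and VEGFA in both directions. By limma, 18 of 40 members (45.0%) were called at an adjusted p under 0.05, against 51.7% of all genes tested. Of these, 6 rose (15.0%, background 23.2%) and 12 fell (30.0%, background 28.6%), so the shares lay near or below the background. AK4 and PFKP were called down and lower in all 7 lines, 2 of 40 members, against 10.0% of all genes. The median member change was -0.05, against -0.02 over all genes. Each array holds the RNA of a whole culture, so fewer cells carrying a transcript and less of it per cell cannot be told apart.

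**Figure D1:**
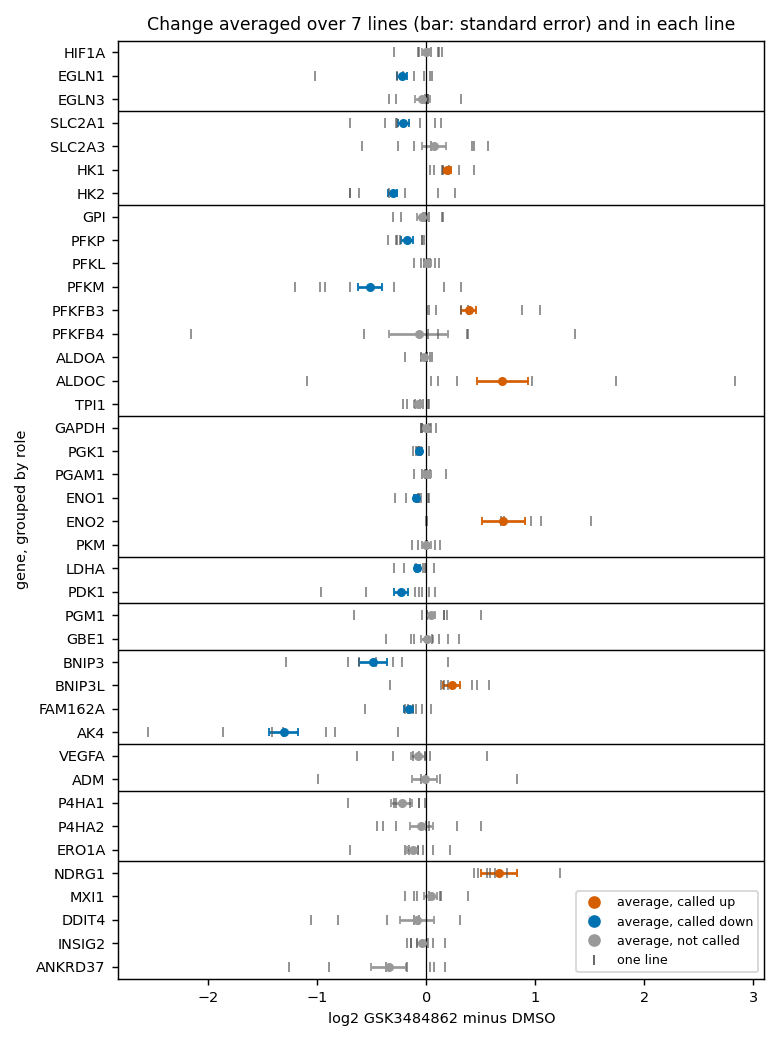
Log2 change (GSK3484862 minus DMSO, x axis) of the 40 genes, grouped by role. Large points are the average over 7 lines with its limma standard error (orange, called up; blue, called down; grey, not called) and ticks are single lines. AK4 stands apart at -1.31, and ENO2, ALDOC and NDRG1 lie at 0.66 to 0.70.

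Among the mitochondrial targets, AK4 had the largest average change of the 40. It encodes an adenylate kinase of the mitochondrial matrix that exchanges phosphates between nucleotides and is induced in hypoxia. Its log2 signals were 7.66 and 7.45 in treated GDM1 against 9.11 and 8.83 in GDM1 DMSO, and 3.88 and 3.86 in treated MOLM13 against 4.96 and 6.50 in MOLM13 DMSO. They were 9.55 and 10.23 in treated SKM1 against 10.98 and 11.43 in SKM1 DMSO, 9.18 and 9.41 in treated THP1 against 10.11 and 10.16 in THP1 DMSO, and 11.30 and 11.33 in treated SKNO1 against 11.60 and 11.55 in SKNO1 DMSO. In the remaining lines AK4 gave 8.34 and 7.92 in treated NOMO1 against 9.00 and 9.10 in NOMO1 DMSO, and 2.27 and 2.39 in treated SHI1 against 4.53 and 5.25 in SHI1 DMSO. In all 7 lines both treated arrays lay below both DMSO arrays. The average change was -1.31 ± 0.13 (SE; adjusted p = 5.51e-07), a 2.48-fold lower level, and AK4 fell in GDM1, MOLM13, SKM1 and SHI1. All 4 AK4 probe sets fell on average, by 1.31, 1.03, 0.91 and 0.41. The size differed between lines (limma F-test, adjusted p = 0.0235), with -2.56 in SHI1 and -0.26 in SKNO1, but 2 of the other 3 probe sets did not pass that F-test (adjusted p = 0.0967 and 0.284 over all probe sets). In SHI1 the treated arrays lay near the floor, so the size of that fall was limited by it, and on the mean of all 4 probe sets it was -1.13. Without the second MOLM13 DMSO array, which was 1.53 above the first, the MOLM13 change was -1.10. The SKM1 call ended without the second DMSO array (-1.09, adjusted p = 0.0768) or the first treated array (-0.97, adjusted p = 0.106). AK4 kept its average call whichever array or line was left out, and with the 7 lines as units (adjusted p = 0.0404).

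BNIP3, a mitochondrial outer membrane protein that promotes mitophagy, gave 9.09 and 9.01 in treated GDM1 against 9.18 and 9.36 in GDM1 DMSO, 10.35 and 10.36 in treated MOLM13 against 11.34 and 11.94 in MOLM13 DMSO, and 11.57 and 13.09 in treated SKM1 against 12.69 and 13.40 in SKM1 DMSO. Its signals were 9.82 and 9.99 in treated THP1 against 10.49 and 10.57 in THP1 DMSO, 10.88 and 10.99 in treated SKNO1 against 11.27 and 11.20 in SKNO1 DMSO, and 9.59 and 9.63 in treated NOMO1 against 9.88 and 10.25 in NOMO1 DMSO. SHI1 stood apart, with 2.64 and 2.21 in treated SHI1 against 2.13 and 2.32 in SHI1 DMSO. SHI1 therefore had BNIP3 at the floor with or without the inhibitor, and the second probe set of the gene averaged 3.11 there in both groups, against 8.21 to 12.5 in the DMSO groups of the other lines. In 5 of the other 6 lines the treated arrays lay below the DMSO arrays, and in SKM1 they overlapped. The average fell by 0.49 (SE 0.13, adjusted p = 0.00419), with a line call in MOLM13 (-1.29 ± 0.34, adjusted p = 0.00864). Without MOLM13 the average was -0.36 (adjusted p = 0.0506), and without the second MOLM13 DMSO array the MOLM13 change was -0.99 (adjusted p = 0.096).

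Its relative BNIP3L (NIX) moved the other way: 12.90 and 12.67 in treated GDM1 against 12.56 and 12.69 in GDM1 DMSO, 11.78 and 11.77 in treated MOLM13 against 11.09 and 11.62 in MOLM13 DMSO, and 11.62 and 12.41 in treated SKM1 against 12.23 and 12.47 in SKM1 DMSO. The other lines gave 10.70 and 10.61 in treated THP1 against 10.13 and 10.26 in THP1 DMSO, and 11.07 and 11.31 in treated SKNO1 against 10.99 and 11.12 in SKNO1 DMSO, 12.48 and 12.57 in treated NOMO1 against 11.93 and 11.98 in NOMO1 DMSO, and 12.02 and 11.94 in treated SHI1 against 11.68 and 11.88 in SHI1 DMSO. Treated arrays lay above DMSO arrays in 4 lines and overlapped in GDM1, SKM1 and SKNO1. BNIP3L rose by 0.23 ± 0.07 on average (adjusted p = 0.0153) and was called in no single line. Its other probe set averaged 0.17 and did not pass (limma, adjusted p = 0.143 over all probe sets). In THP1 that probe set gave -0.01, against 0.46 on the one read, so the BNIP3L call depended on the probe set. On the probe set read the average was 0.17 without NOMO1 (adjusted p = 0.104) and 0.19 without THP1 (adjusted p = 0.0759). FAM162A, a mitochondrial protein induced by HIF, fell by 0.16 on average (SE 0.04, adjusted p = 0.00188) on all 4 of its probe sets, with a line call in SKM1 at -0.56. Without SKM1 the FAM162A average was -0.10 (adjusted p = 0.0247). On average 3 of the 4 mitochondrial targets fell and 1 rose, where 28.6% of all genes fell and 23.2% rose.

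**Figure D2:**
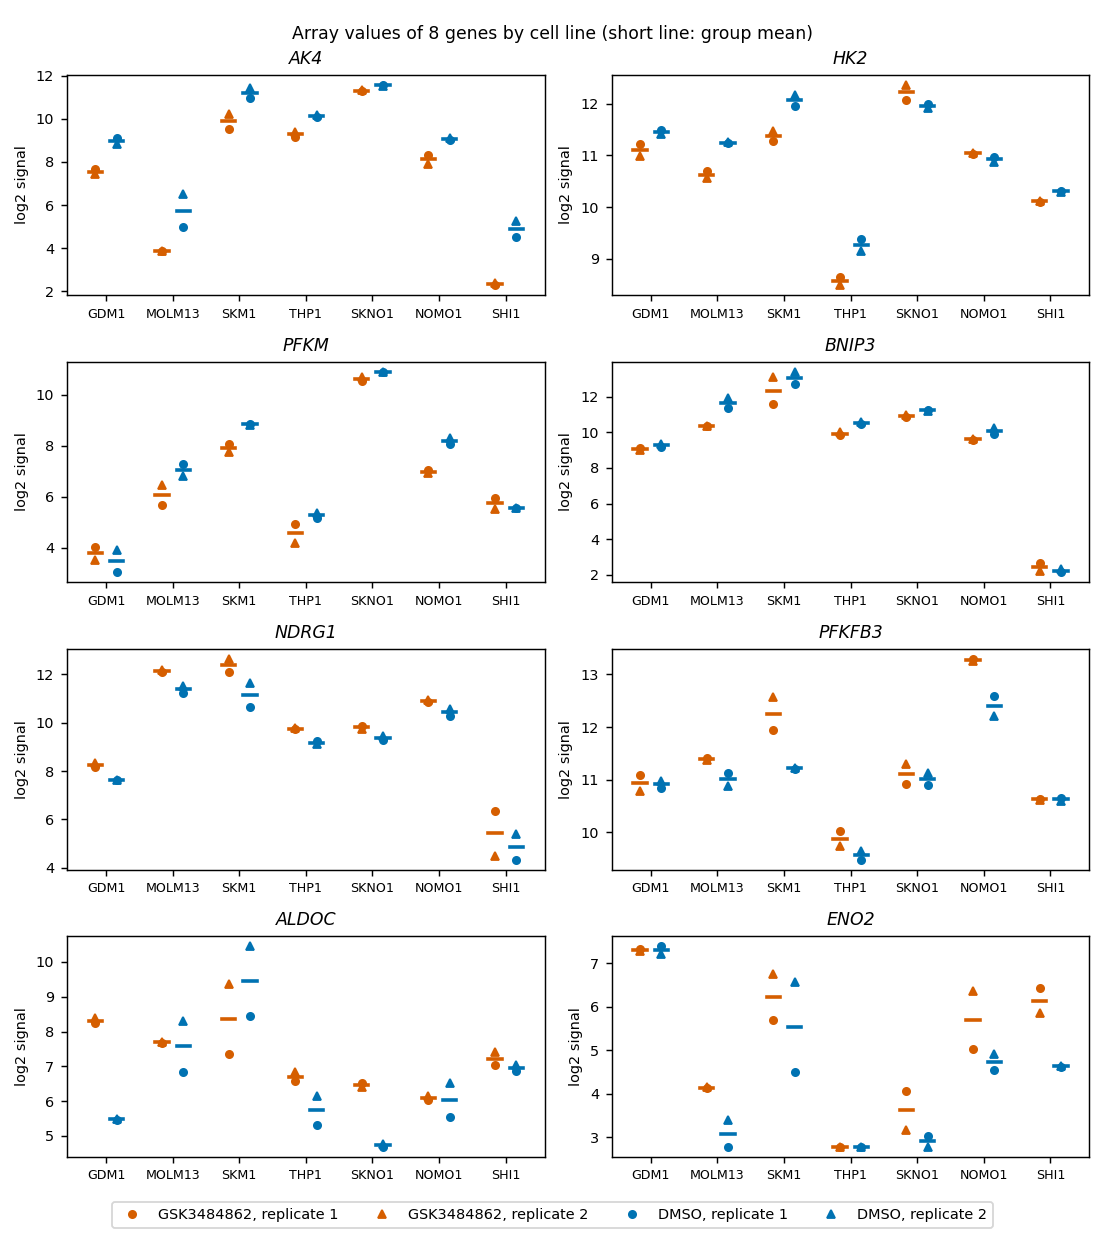
Log2 signal (y axis) of 8 genes in every array, by cell line (x axis). Orange symbols are GSK3484862 and blue symbols DMSO, circles replicate 1 and triangles replicate 2, and short lines group means. AK4 was lower in treated arrays in all 7 lines, BNIP3 sat at the floor in SHI1, and the SKM1 duplicates of BNIP3, ALDOC and ENO2 lay far apart in at least 1 group.

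Glucose enters the cell through SLC2A1 (GLUT1) and SLC2A3 (GLUT3) and is trapped by hexokinases. HK2, the hexokinase most tied to HIF and to cancer, gave 11.23 and 10.98 in treated GDM1 against 11.48 and 11.41 in GDM1 DMSO, and 10.69 and 10.56 in treated MOLM13 against 11.23 and 11.25 in MOLM13 DMSO. Signals were 11.27 and 11.46 in treated SKM1 against 11.96 and 12.17 in SKM1 DMSO, and 8.64 and 8.49 in treated THP1 against 9.38 and 9.15 in THP1 DMSO. The other lines gave 12.08 and 12.37 in treated SKNO1 against 11.99 and 11.92 in SKNO1 DMSO, and 11.02 and 11.05 in treated NOMO1 against 10.97 and 10.88 in NOMO1 DMSO, and 10.11 and 10.12 in treated SHI1 against 10.32 and 10.30 in SHI1 DMSO. Treated arrays lay below DMSO arrays in 5 lines and above them in SKNO1 and NOMO1. HK2 fell by 0.31 on average (SE 0.04, adjusted p = 1.18e-05) and in GDM1, MOLM13, SKM1 and THP1, and the change differed between lines (adjusted p = 0.000351). That F-test call depended on the probe set read. The other 2 HK2 probe sets were lower with treatment in all 7 lines, on average by 0.42 and 0.54. Their changes were -0.10 and -0.19 in SKNO1, and -0.71 and -0.80 in NOMO1, and their F-tests gave adjusted p = 0.47 and 0.0509 over all probe sets. The GDM1 call of HK2 ended without any of 3 of that line's 4 arrays (values -0.22 to -0.38).

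HK1, the housekeeping hexokinase, changed in the opposite direction. Its signals were 11.14 and 11.18 in treated GDM1 against 11.04 and 10.87 in GDM1 DMSO, 11.51 and 11.27 in treated MOLM13 against 11.11 and 11.07 in MOLM13 DMSO, and 12.81 and 12.59 in treated SKM1 against 12.57 and 12.69 in SKM1 DMSO. They were 10.72 and 10.58 in treated THP1 against 10.57 and 10.41 in THP1 DMSO, and 12.33 and 12.22 in treated SKNO1 against 12.20 and 12.08 in SKNO1 DMSO, then 12.58 and 12.64 in treated NOMO1 against 12.53 and 12.62 in NOMO1 DMSO, and 12.19 and 12.14 in treated SHI1 against 11.67 and 11.79 in SHI1 DMSO. The change was above zero in all 7 lines, and the groups overlapped in SKM1 and NOMO1 only. HK1 rose by 0.19 ± 0.04 on average (adjusted p = 0.000368), with line calls in MOLM13 and SHI1 that each ended when 1 of 3 arrays of the line was left out (0.19 to 0.33 in MOLM13 and 0.38 to 0.47 in SHI1).

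SLC2A1 gave 6.22 and 6.47 in treated GDM1 against 6.57 and 6.66 in GDM1 DMSO, 5.80 and 5.96 in treated MOLM13 against 6.22 and 6.30 in MOLM13 DMSO, and 5.66 and 5.91 in treated SKM1 against 6.50 and 6.47 in SKM1 DMSO. It gave 8.01 and 7.88 in treated THP1 against 8.45 and 8.00 in THP1 DMSO, and 6.02 and 5.95 in treated SKNO1 against 6.03 and 6.06 in SKNO1 DMSO, 7.44 and 7.37 in treated NOMO1 against 7.22 and 7.33 in NOMO1 DMSO, and 6.05 and 6.05 in treated SHI1 against 5.90 and 6.05 in SHI1 DMSO. Treated arrays were below DMSO in GDM1, MOLM13, SKM1 and SKNO1, above in NOMO1, and overlapping in THP1 and SHI1. SLC2A1 fell by 0.21 on average (SE 0.05, adjusted p = 0.0012) and differed between lines (adjusted p = 0.0126). It fell in SKM1 (-0.70 ± 0.12) and MOLM13 (-0.38 ± 0.12), and without SKM1 the average was -0.13 (adjusted p = 0.0418). Leaving out 1 of 3 MOLM13 arrays ended the MOLM13 call (-0.30 to -0.42). SLC2A3 did not pass the test in any line, with changes from -0.59 in MOLM13 to 0.57 in GDM1, where the groups did not overlap. Its other 2 probe sets averaged 0.17 and 0.28, the second with an adjusted p of 0.0283 over all probe sets, and both differed between lines (F-test, adjusted p = 0.00684 and 0.0211), so the SLC2A3 result depended on the probe set.

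Phosphofructokinase commits glucose to glycolysis, and its 3 subunit genes differed. PFKM, the muscle-type subunit, gave 4.04 and 3.52 in treated GDM1 against 3.03 and 3.89 in GDM1 DMSO, 5.69 and 6.46 in treated MOLM13 against 7.30 and 6.80 in MOLM13 DMSO, and 8.06 and 7.74 in treated SKM1 against 8.85 and 8.82 in SKM1 DMSO. Its signals were 4.93 and 4.20 in treated THP1 against 5.16 and 5.38 in THP1 DMSO, and 10.54 and 10.68 in treated SKNO1 against 10.91 and 10.91 in SKNO1 DMSO, then 7.04 and 6.92 in treated NOMO1 against 8.05 and 8.31 in NOMO1 DMSO, and 5.94 and 5.53 in treated SHI1 against 5.58 and 5.57 in SHI1 DMSO. In 5 lines treated arrays lay below DMSO arrays, and in GDM1 and SHI1 they overlapped. PFKM fell by 0.52 on average (SE 0.11, adjusted p = 0.00101), differed between lines (adjusted p = 0.0363), and fell in NOMO1 (-1.20 ± 0.30), MOLM13 and SKM1. Each of these 3 line calls ended when some single array was left out, with values of -0.59 and -0.72 in MOLM13 without the first treated and the first DMSO array, -0.77 to -0.95 in SKM1 without the second treated or either DMSO array, and -1.07 to -1.26 in NOMO1 without either treated or the second DMSO array. PFKP, the platelet-type subunit, fell by 0.18 on average (SE 0.06, adjusted p = 0.0147) with a negative change in all 7 lines, and without NOMO1 or THP1 it missed the threshold (-0.15, adjusted p = 0.0639, and -0.16, adjusted p = 0.051). PFKL, the liver-type subunit, averaged 0.01 and passed in no line.

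The bifunctional enzyme PFKFB3 makes fructose 2,6-bisphosphate, the strongest activator of phosphofructokinase. Its signals were 11.08 and 10.79 in treated GDM1 against 10.84 and 10.98 in GDM1 DMSO, 11.41 and 11.37 in treated MOLM13 against 11.13 and 10.89 in MOLM13 DMSO, and 11.94 and 12.57 in treated SKM1 against 11.21 and 11.22 in SKM1 DMSO. They were 10.02 and 9.74 in treated THP1 against 9.48 and 9.65 in THP1 DMSO, and 10.92 and 11.29 in treated SKNO1 against 10.90 and 11.13 in SKNO1 DMSO, then 13.30 and 13.25 in treated NOMO1 against 12.59 and 12.20 in NOMO1 DMSO, and 10.64 and 10.62 in treated SHI1 against 10.65 and 10.59 in SHI1 DMSO. Treated arrays lay above DMSO arrays in MOLM13, SKM1, THP1 and NOMO1 and overlapped in GDM1, SKNO1 and SHI1. PFKFB3 rose by 0.39 ± 0.07 on average (adjusted p = 0.000156), and by 1.04 ± 0.18 in SKM1 and 0.88 ± 0.18 in NOMO1, and the change differed between lines (adjusted p = 0.0138). The NOMO1 call ended without the second DMSO array (0.68, adjusted p = 0.0821).

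Its paralogue PFKFB4 gave 3.66 and 4.05 in treated GDM1 against 2.29 and 2.70 in GDM1 DMSO, 4.25 and 4.18 in treated MOLM13 against 4.16 and 5.42 in MOLM13 DMSO, and 4.26 and 6.34 in treated SKM1 against 6.08 and 8.83 in SKM1 DMSO. The other lines gave 4.18 and 4.27 in treated THP1 against 4.16 and 4.08 in THP1 DMSO, and 3.43 and 3.57 in treated SKNO1 against 2.46 and 3.77 in SKNO1 DMSO, 4.70 and 5.25 in treated NOMO1 against 4.25 and 4.95 in NOMO1 DMSO, and 4.77 and 4.41 in treated SHI1 against 4.66 and 4.49 in SHI1 DMSO. It fell in SKM1 (-2.16 ± 0.71, adjusted p = 0.0317) although the 4 arrays there overlapped, and the average did not pass. That SE is shared over all groups and does not measure the SKM1 spread, where the duplicates differed by 2.08 (treated) and 2.75 (DMSO). Without the second SKM1 DMSO array that change was -0.78 (adjusted p = 0.445), without the first treated array -1.12 (adjusted p = 0.343), and without the first DMSO array -3.53 (adjusted p = 0.00144).

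Aldolase splits the sugar, and its brain-type gene ALDOC moved while ALDOA did not pass the test. ALDOC signals were 8.24 and 8.38 in treated GDM1 against 5.47 and 5.49 in GDM1 DMSO, 7.66 and 7.71 in treated MOLM13 against 6.85 and 8.30 in MOLM13 DMSO, and 7.37 and 9.36 in treated SKM1 against 8.46 and 10.46 in SKM1 DMSO. They were 6.58 and 6.83 in treated THP1 against 5.32 and 6.14 in THP1 DMSO, and 6.52 and 6.42 in treated SKNO1 against 4.69 and 4.77 in SKNO1 DMSO, then 6.02 and 6.14 in treated NOMO1 against 5.55 and 6.53 in NOMO1 DMSO, and 7.02 and 7.42 in treated SHI1 against 6.85 and 7.03 in SHI1 DMSO. In GDM1, THP1 and SKNO1 the treated arrays lay above the DMSO arrays, and in the other 4 lines the groups overlapped. ALDOC rose by 0.70 ± 0.23 on average (adjusted p = 0.018) and differed between lines (adjusted p = 0.0256). The only line call was GDM1, at 2.83 ± 0.61 (adjusted p = 0.00168), which held whichever GDM1 array was left out. Without GDM1 the average was 0.34 (adjusted p = 0.316) and without SKNO1 it was 0.52 (adjusted p = 0.114). ALDOA averaged -0.02, GPI -0.04 and TPI1 -0.08 (adjusted p = 0.0539), and none of the 3 was called in any line. The dimmest TPI1 probe set averaged -0.21 (limma, adjusted p = 0.00127 over all probe sets), with -0.66 in SKM1. The dimmest ALDOA probe set averaged -0.11 (limma, adjusted p = 0.0618 over all probe sets), with -0.48 in SKM1. In all, 2 of the 9 genes of upper glycolysis rose on average (22.2%) and 2 fell (22.2%), near the 23.2% and 28.6% of all genes, and 5 did not pass.

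In lower glycolysis the enolases parted. ENO2, the neuronal enolase, gave 7.32 and 7.29 in treated GDM1 against 7.40 and 7.21 in GDM1 DMSO, 4.13 and 4.14 in treated MOLM13 against 2.78 and 3.38 in MOLM13 DMSO, and 5.70 and 6.75 in treated SKM1 against 4.50 and 6.57 in SKM1 DMSO. Its signals were 2.78 and 2.78 in treated THP1 against 2.78 and 2.78 in THP1 DMSO, and 4.07 and 3.17 in treated SKNO1 against 3.03 and 2.78 in SKNO1 DMSO, then 5.03 and 6.36 in treated NOMO1 against 4.55 and 4.91 in NOMO1 DMSO, and 6.42 and 5.85 in treated SHI1 against 4.61 and 4.64 in SHI1 DMSO. Treated arrays lay above DMSO arrays in MOLM13, SKNO1, NOMO1 and SHI1, overlapped in SKM1 and GDM1, and in THP1 all 4 arrays were at the same low value. That value, 2.78, was the lowest ENO2 signal of any array, and the first MOLM13 and second SKNO1 DMSO arrays had it too. The changes in MOLM13 (1.05) and SKNO1 (0.72) thus start at or near it, and their size may be limited by it. ENO2 rose by 0.70 ± 0.20 on average (adjusted p = 0.00689), was called in no single line, and did not pass the test of a difference between lines (adjusted p = 0.49). ENO1, the common enolase, fell by 0.09 on average (SE 0.02, adjusted p = 0.00505), with line calls at -0.29 in SKM1 and -0.19 in GDM1. Without SKM1 the ENO1 average was -0.06 (adjusted p = 0.0417), and the GDM1 call ended without any 1 of the 4 arrays (-0.17 to -0.21). PGK1 fell by 0.06 (SE 0.02, adjusted p = 0.0366), a call that ended when any of 17 single arrays was left out (-0.05 to -0.07, adjusted p up to 0.0705). All 6 PGK1 probe sets fell on average, by 0.06 to 0.21, and 3 passed over all probe sets. In SKM1 PGK1 changed by -0.12 on the probe set read and by -0.23 to -0.72 on the others. ENO1 gave -0.28 to -0.77 in SKM1 on its other probe sets, against -0.29 on the one read. GAPDH, PGAM1 and PKM averaged within 0.01 of zero and passed in no line. For GAPDH all 3 probe sets lay between -0.06 and -0.03 in SKM1.

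At the pyruvate branch, LDHA makes lactate and PDK1 is the kinase that shuts pyruvate dehydrogenase. PDK1 gave 12.52 and 12.25 in treated GDM1 against 12.29 and 12.32 in GDM1 DMSO, 9.71 and 10.05 in treated MOLM13 against 10.33 and 10.54 in MOLM13 DMSO, and 10.43 and 11.08 in treated SKM1 against 11.71 and 11.73 in SKM1 DMSO. It gave 9.87 and 9.75 in treated THP1 against 9.83 and 9.87 in THP1 DMSO, and 12.25 and 12.17 in treated SKNO1 against 12.28 and 12.27 in SKNO1 DMSO, 9.99 and 9.85 in treated NOMO1 against 10.02 and 9.78 in NOMO1 DMSO, and 9.92 and 10.09 in treated SHI1 against 10.10 and 10.12 in SHI1 DMSO. Treated arrays lay below DMSO arrays in MOLM13, SKM1, SKNO1 and SHI1 and overlapped in the others. PDK1 fell by 0.23 on average (SE 0.06, adjusted p = 0.0042) and differed between lines (adjusted p = 0.0115), with falls in SKM1 (-0.97 ± 0.16) and MOLM13 (-0.55 ± 0.16). Without SKM1 the average was -0.11 (adjusted p = 0.0699), and without the first treated SKM1 array the SKM1 change was -0.64 (adjusted p = 0.00427). The MOLM13 call ended without the first treated array (-0.38) or the second DMSO array (-0.45). LDHA fell by 0.08 on average (SE 0.03, adjusted p = 0.0139) and in SKM1 (-0.30) and GDM1 (-0.21). Without SKM1 the LDHA average was -0.05 (adjusted p = 0.133) and without GDM1 it was -0.06 (adjusted p = 0.104), and the GDM1 call ended without any 1 of the 4 arrays (-0.19 to -0.23).

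PGM1, which links glycogen to glycolysis by shifting the phosphate on glucose, had the smallest F-test p of the 40 and no average call. Its signals were 7.74 and 7.85 in treated GDM1 against 8.54 and 8.38 in GDM1 DMSO, 11.78 and 11.81 in treated MOLM13 against 11.23 and 11.35 in MOLM13 DMSO, and 12.34 and 12.43 in treated SKM1 against 12.25 and 12.59 in SKM1 DMSO. They were 10.69 and 10.70 in treated THP1 against 10.54 and 10.47 in THP1 DMSO, and 11.45 and 11.35 in treated SKNO1 against 11.44 and 11.34 in SKNO1 DMSO, then 13.41 and 13.50 in treated NOMO1 against 13.24 and 13.35 in NOMO1 DMSO, and 12.81 and 12.83 in treated SHI1 against 12.59 and 12.72 in SHI1 DMSO. Treated arrays lay below DMSO arrays in GDM1, above them in MOLM13, THP1, NOMO1 and SHI1, and overlapped in SKM1 and SKNO1. PGM1 fell in GDM1 (-0.67 ± 0.10, adjusted p = 5.01e-05) and rose in MOLM13 (0.51 ± 0.10, adjusted p = 0.000883), and the difference between lines had adjusted p = 0.000225. Both line calls held whichever array of the line was left out, and without GDM1 the average was 0.17 (adjusted p = 0.00331). GBE1, the glycogen branching enzyme, averaged 0.01 and passed in no line.

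Among the oxygen sensors, EGLN1 (PHD2), the main HIF prolyl hydroxylase, gave 3.69 and 3.24 in treated GDM1 against 4.49 and 4.49 in GDM1 DMSO, 11.60 and 11.56 in treated MOLM13 against 11.62 and 11.58 in MOLM13 DMSO, and 12.25 and 12.63 in treated SKM1 against 12.55 and 12.76 in SKM1 DMSO. It gave 12.98 and 12.89 in treated THP1 against 12.88 and 12.93 in THP1 DMSO, and 11.71 and 11.73 in treated SKNO1 against 11.66 and 11.69 in SKNO1 DMSO, 10.90 and 10.89 in treated NOMO1 against 11.23 and 11.09 in NOMO1 DMSO, and 11.03 and 11.09 in treated SHI1 against 11.14 and 11.21 in SHI1 DMSO. GDM1 was far below the other lines, and all 4 EGLN1 probe sets averaged 2.36 to 4.49 in DMSO GDM1. EGLN1 fell by 0.22 on average (SE 0.05, adjusted p = 0.000658) and by 1.03 in GDM1 (SE 0.12, adjusted p = 6.73e-06), and differed between lines (adjusted p = 0.00145). The other 3 probe sets moved up in GDM1, by 0.29, 0.34 and 0.46, and the mean of all 4 gave 0.02 there (adjusted p = 0.999), so the sign of the GDM1 change depended on the probe set. Without GDM1 the average was -0.09 (adjusted p = 0.0839). HIF1A averaged -0.01 and fell in MOLM13 (-0.30 ± 0.09, adjusted p = 0.0158), a call that ended without the first treated (-0.28) or first DMSO array (-0.25). EGLN3, a HIF-induced hydroxylase, had DMSO means of 3.57 to 3.60 in MOLM13, THP1, SKNO1 and NOMO1 and passed in no line.

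The remaining targets of HIF were mixed. NDRG1, a stress-response gene and strong marker of hypoxia, gave 8.16 and 8.34 in treated GDM1 against 7.62 and 7.62 in GDM1 DMSO, 12.08 and 12.16 in treated MOLM13 against 11.21 and 11.53 in MOLM13 DMSO, and 12.12 and 12.64 in treated SKM1 against 10.66 and 11.65 in SKM1 DMSO. Its signals were 9.74 and 9.77 in treated THP1 against 9.22 and 9.12 in THP1 DMSO, and 9.86 and 9.75 in treated SKNO1 against 9.29 and 9.45 in SKNO1 DMSO, then 10.85 and 10.95 in treated NOMO1 against 10.29 and 10.57 in NOMO1 DMSO, and 6.35 and 4.50 in treated SHI1 against 4.34 and 5.40 in SHI1 DMSO. In all lines but SHI1 both treated arrays lay above both DMSO arrays. NDRG1 rose by 0.66 ± 0.16 on average (adjusted p = 0.00289), a 1.58-fold higher level, with no called difference between lines (adjusted p = 0.907). It kept its call whichever array or line was left out, and with lines as units (adjusted p = 0.0404). In SKM1 it rose by 1.22 ± 0.43 (adjusted p = 0.045), which ended without the first DMSO array (0.73), the second treated array (0.96) or the first treated array (1.48).

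VEGFA, the angiogenic factor, averaged -0.08 and did not pass, but it differed between lines (adjusted p = 0.0196). It rose in NOMO1, with 11.73 and 11.48 in treated NOMO1 against 11.05 and 11.05 in NOMO1 DMSO, and fell in SKM1, with 10.34 and 11.04 in treated SKM1 against 11.19 and 11.47 in SKM1 DMSO. The changes were 0.56 ± 0.17 and -0.64 ± 0.17, and the NOMO1 call ended without any 1 of its 4 arrays (0.43 to 0.69). In SKM1 the value was -0.29 without the first treated array (adjusted p = 0.157), -0.50 without the second DMSO array (adjusted p = 0.0781) and -0.99 without the second treated array. ADM, the peptide adrenomedullin, stood between 2.18 and 2.24 in GDM1, MOLM13 and THP1. Its SKM1 fall (-0.999 ± 0.31) had overlapping arrays and was -0.23 without the second DMSO array (adjusted p = 0.438), -0.71 without the first treated array (adjusted p = 0.191) and -1.76 without the first DMSO array. The average of ADM was -0.02, and 0.15 without SKM1 (adjusted p = 0.023).

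DDIT4 (REDD1), which restrains mTORC1, gave 6.58 and 6.53 in treated GDM1 against 5.29 and 4.82 in GDM1 DMSO. It rose there by 1.50 ± 0.42 and averaged -0.09, with 10.70 and 11.55 in treated SKM1 against 11.57 and 12.79 in SKM1 DMSO, and the difference between lines had adjusted p = 0.0362. The GDM1 call ended without the second DMSO array (1.26, adjusted p = 0.087) or the first treated array (1.47, adjusted p = 0.0527). ERO1A, which forms disulfides in the endoplasmic reticulum, fell in GDM1 (-0.70 ± 0.14) and averaged -0.13 (adjusted p = 0.0575), differing between lines (adjusted p = 0.0312; 0.0744 and 0.0681 on its other 2 probe sets). P4HA1, a collagen prolyl hydroxylase, was negative in all 7 lines without passing on average (-0.23, adjusted p = 0.0564). Its SKM1 fall of 0.72 had overlapping arrays, with -0.28 without the second DMSO array (adjusted p = 0.486), -0.23 without the first treated array (adjusted p = 0.552), -1.17 without the first DMSO array and -1.22 without the second treated array. ANKRD37 fell in MOLM13 (-1.26 ± 0.41, adjusted p = 0.0298), and its average of -0.35 did not pass (adjusted p = 0.0748). Leaving out the first treated or either DMSO array of MOLM13 ended that call, with values of -0.94 to -1.47. P4HA2, the MYC antagonist MXI1 and the sterol-sensing INSIG2 averaged -0.05, 0.04 and -0.04 and passed in no line.

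The next comparison asked what each line did. Across the 280 member-by-line values, 39 were called, to be read against the share of all genes called in each line, given below. Called in no line were 17 members, and the share of all genes called in no line is not given here. In SKM1, 14 of 40 members were called (35.0%, background 28.1%), of which 12 fell (30.0%, background 14%) and 2 rose (background 14.1%). The median member change was -0.29, against -0.00 over all genes. SKM1 had 35 of 40 members below zero: the 12 that fell were PFKFB4, AK4, ADM, PDK1, PFKM, P4HA1, HK2, SLC2A1, VEGFA, FAM162A, LDHA and ENO1, and PFKFB3 and NDRG1 rose. The calls of SLC2A1, HK2, PFKFB3, ENO1, LDHA, PDK1 and FAM162A held whichever SKM1 array was left out. The count ran from 8 without the first treated array and 9 without the second DMSO array to 22 without the first DMSO or the second treated array. Fitted on its own 4 arrays SKM1 had 0 calls among members and 53 among all 11676 genes, with 7 members at an unadjusted p under 0.05. As that fit called few genes of any kind, its 0 does not set the members apart.

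MOLM13 had 10 called members (25.0%, background 29.1%), 8 of them lower (background 15.4%) and 2 higher (background 13.7%). AK4, BNIP3, ANKRD37, PFKM, HK2, PDK1, SLC2A1 and HIF1A fell, and PGM1 and HK1 rose. The count was 4 without the first treated array, 6 without either DMSO array, and 2 on the line's own arrays. In GDM1 9 members were called (22.5%, background 33.7%): AK4, EGLN1, ERO1A, PGM1, HK2, LDHA and ENO1 fell (background 20.5%), and ALDOC and DDIT4 rose (background 13.3%). That count was 5 without the second DMSO array. NOMO1 had 3 calls (7.5%, background 11.8%), which were PFKFB3 and VEGFA up (background 4.21%) and PFKM down (background 7.55%). NOMO1 had 0 without the second DMSO array or on its own arrays, 1 without either treated array and 2 without the first DMSO array. On the NOMO1 arrays alone 0 of all genes were called, and 10 members were at an unadjusted p under 0.05. The share of all genes at an unadjusted p under 0.05 is not given for any single line. Such counts, here and for SKM1 and SKNO1, therefore do not set the members apart. SHI1 had 2 (5.0%, background 3.42%), HK1 up (background 2.52%) and AK4 down (background 0.899%). THP1 had 1 (2.5%, background 13.7%), HK2 down (background 8.30% down and 5.40% up), and 2 without its second DMSO array. In SKNO1 0 of 40 were called by limma (background 6.08%, with 2.96% up and 3.12% down), with 3 at an unadjusted p under 0.05. On its own arrays SKNO1 also had 0, among members and among all genes, with 8 members at an unadjusted p under 0.05. SHI1 had 1 call without its first treated or first DMSO array. Without the 4 SKM1 arrays in the fit, THP1 and NOMO1 had 6 calls each and SKNO1 had 2. The share of all genes called is not given for fits without some arrays, so these counts do not set the members apart.

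**Figure D3:**
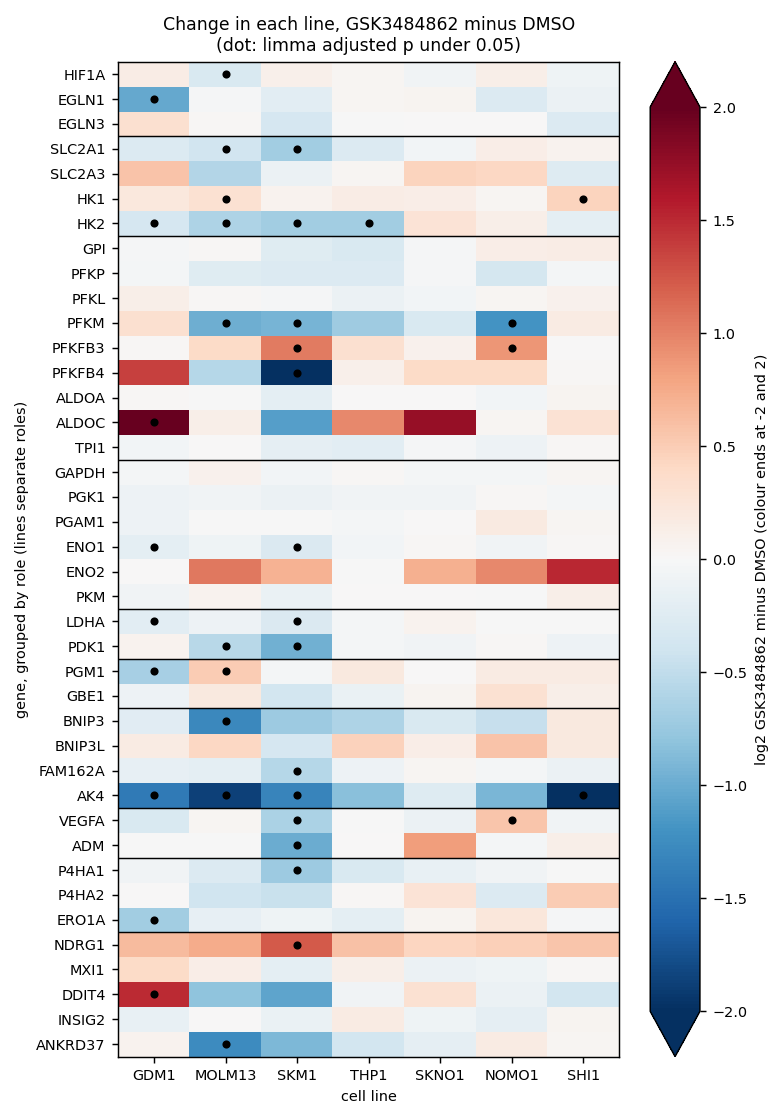
Log2 change (GSK3484862 minus DMSO, colour) of the 40 genes (rows, grouped by role) in the 7 lines (columns). Dots mark limma adjusted p under 0.05. SKM1 has 35 of 40 genes below zero, AK4 is lower in every line, and PGM1, VEGFA, ALDOC and DDIT4 change sign between lines.

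The change differed between lines for 13 of 40 members by the limma F-test (32.5%, background 37.5%). The hexokinase, transporter and phosphofructokinase genes HK2, SLC2A1 and PFKM, the regulators PFKFB3, PDK1 and EGLN1, PGM1, ALDOC, and the targets AK4, FAM162A, VEGFA, ERO1A and DDIT4 made up the 13. Without GDM1 the count was 7, without the first GDM1 DMSO array it was 8, and without the first SKM1 DMSO array it was 21. The enzymes GAPDH, PGK1, PGAM1, PKM, TPI1, GPI and ALDOA were not among them. On its dimmest probe set TPI1 did differ (limma F-test, adjusted p = 0.0456 over all probe sets). By the same adjustment FAM162A passed on none of its probe sets (limma F-test, adjusted p = 0.0662 to 0.182).

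The duplicates of SKM1 stood apart for these genes, and this moved with the SKM1 results above. In treated SKM1 replicate 2 was higher than replicate 1 for 35 of 40 members, and by over 0.5 for 17 of them (42.5%), against 5.67% of all genes. In SKM1 DMSO it was higher for 38 of 40, and by over 0.5 for 15 (37.5%), against 6.57% of all genes. The median gap was 0.43 in treated SKM1 and 0.33 in SKM1 DMSO, against 0.00 and 0.03 over all genes. The widest gap was that of PFKFB4 in both groups, 2.08 in treated SKM1 and 2.75 in DMSO, and ALDOC differed by 1.99 in treated SKM1 and 2.00 in DMSO. In MOLM13 DMSO 7 members were higher by over 0.5 in replicate 2 (17.5%, against 3.20% of all genes), among them DDIT4 by 1.70, AK4 by 1.53 and ALDOC by 1.45, while treated MOLM13 had 2 such members. In each of the other 11 groups at most 3 members were higher by over 0.5 in replicate 2. Where SKM1 arrays overlapped, the change at the same replicate number could still be steady, with -0.77 and -0.67 for P4HA1 and -1.09 and -1.10 for ALDOC. For ADM (-0.52 and -1.47) and BNIP3 (-1.12 and -0.32) it was not. What made the duplicates differ was not tested.

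**Figure D4:**
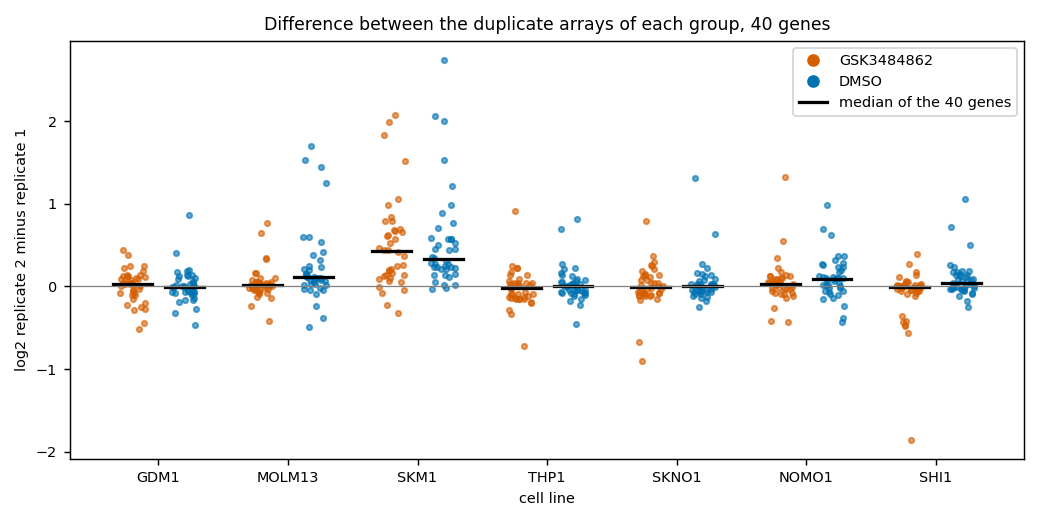
Log2 replicate 2 minus replicate 1 (y axis) of the 40 genes in each group, GSK3484862 in orange and DMSO in blue, by cell line (x axis). Black bars are medians of the 40 genes. The SKM1 groups have medians of 0.43 and 0.33, and MOLM13 DMSO has 7 genes above 0.5.

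The last comparison asked how the lines differed without the inhibitor. All 40 members differed across the DMSO groups (limma F-test; background 97.0%), so the call itself sets no member apart. In 6 members the levels spanned under 1 log2 unit over the lines: PGK1 (0.33), ENO1 (0.50), GAPDH (0.58), ALDOA (0.81), PFKL (0.92) and TPI1 (0.96). Each was read on its brightest probe set, and spans on the dimmer probe sets of these genes were not compared. At the other end 14 members spanned over 4 units. SKM1 had the highest DMSO level for 17 of the 40 members and THP1 the lowest for 17. The shares of all genes highest in SKM1 or lowest in THP1 are not given, so these counts do not set the members apart. The SKM1 lead was within 2 SE for HK1, HK2, ALDOA, ENO1, LDHA, GBE1, FAM162A and MXI1, and exceeded it for the rest of the 17. In SKM1 DMSO replicate 2 was above replicate 1 for 38 of 40 members, so these levels lean on that array. Of 240 steps between neighbouring lines in these orders, 105 exceeded 2 SE, so most neighbours did not differ beyond their spread.

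Several members were at or near the floor in particular lines, and a span that ends there is a lower bound. BNIP3 spanned at least 10.8 log2 units, with a DMSO mean of 13.05 in SKM1, then MOLM13, SKNO1, THP1, NOMO1 and GDM1 in falling order, and 2.23 in SHI1. MOLM13 and SKNO1, and likewise THP1 and NOMO1, did not differ by over 2 SE. EGLN1 spanned at least 8.41 units, from 12.9 in THP1 to 4.49 in GDM1, with 11.2 in NOMO1 next above GDM1. P4HA2 averaged 10.3 in SKM1 and 2.67 in GDM1, which did not differ from MOLM13 by over 2 SE. PFKM averaged 10.9 in SKNO1 and 3.46 in GDM1. DDIT4 was highest in SHI1 (12.3) and SKM1, which did not differ, and lowest in GDM1 (5.06). AK4 was highest in SKNO1 (11.6) and SKM1, which did not differ by over 2 SE, and low in SHI1 (4.89) and MOLM13 (5.73), whose DMSO arrays overlapped and whose order was the opposite on another AK4 probe set (SHI1 4.60, MOLM13 3.77). NDRG1 was highest in MOLM13 (11.4) and lowest in SHI1 (4.87), and SLC2A3 was highest in SHI1 (10.6) and lowest in THP1 (4.73). PGM1 was highest in NOMO1 (13.3) and lowest in GDM1 (8.46). GDM1 thus had the lowest level of EGLN1, P4HA2, PFKM, DDIT4 and PGM1, and SHI1 that of BNIP3 and NDRG1.

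**Figure D5:**
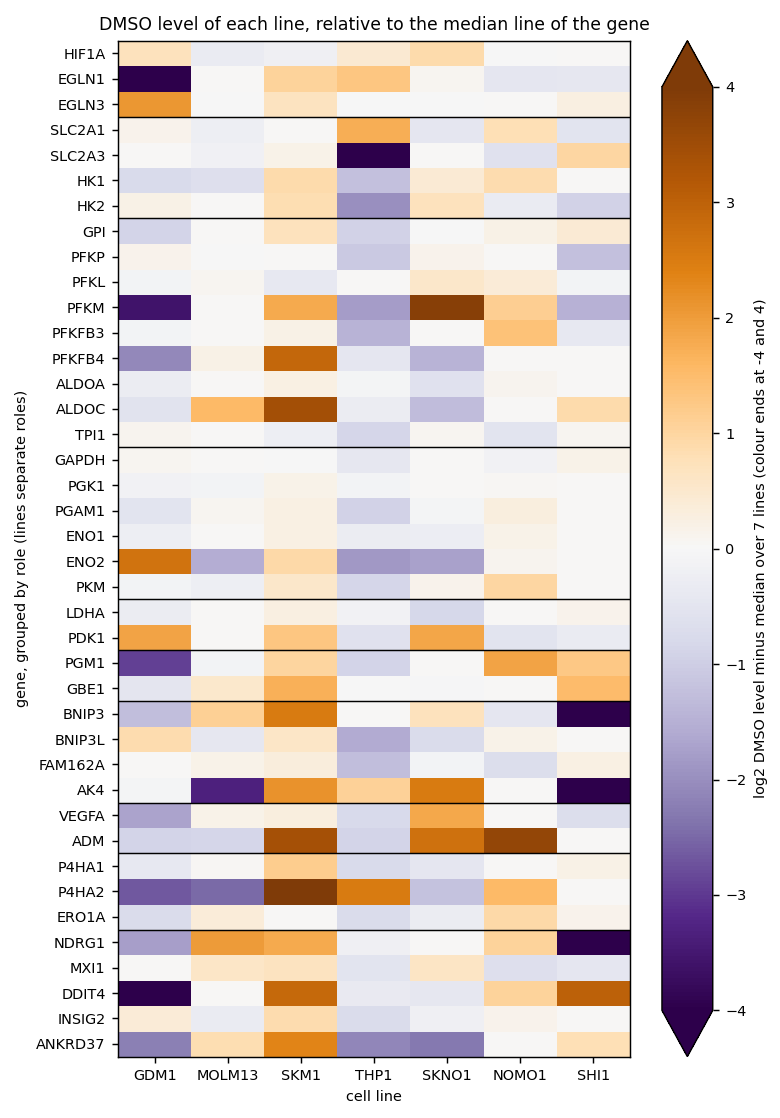
DMSO log2 level of each line (columns) minus the gene's median over the 7 lines (colour), for the 40 genes (rows, grouped by role). Dark purple marks EGLN1 and DDIT4 in GDM1, SLC2A3 in THP1, and BNIP3, AK4 and NDRG1 in SHI1.

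Further genes of the same pathways, outside the 40, were counted in the same fit. Of 15 measured regulators of HIF, of 19 listed, 6 rose (40%, background 23.2%) and 3 fell (20%, background 28.6%) on average. CITED2, a HIF-induced competitor for the coactivator p300, rose by 0.30 ± 0.05, a value of 0.11 without GDM1 (adjusted p = 0.0917). The paralogous subunit EPAS1 (HIF2A) averaged 0.29 ± 0.12, with 2.75 in SKM1 and -1.42 in GDM1, and turned to -0.12 without SKM1 (adjusted p = 0.497). Its average also missed the threshold without MOLM13 (0.20) or NOMO1 (0.23) and was 0.58 without GDM1 and 0.45 without SHI1. HIF1AN (FIH) rose by 0.17 ± 0.07, a call that ended without any of GDM1, MOLM13, SKM1, NOMO1 or SHI1 (0.15 to 0.19), while the ubiquitin ligase SIAH2 fell by 0.23 (SE 0.04). VHL averaged -0.12 and did not pass. Of 36 further hypoxia targets, of 46 listed, 12 rose (33.3%) and 10 fell (27.8%). The haem-degrading HMOX1 rose by 0.83 ± 0.20, the repressor BHLHE40 by 0.76 ± 0.09, and CCNG2 and FOS by 0.58 each, with FOS at 0.26 without SKM1 (adjusted p = 0.0418). Of 27 further genes of glycolysis and pyruvate use, of 41 listed, 7 rose and 7 fell (25.9% each). The myeloid hexokinase HK3 rose by 1.34 ± 0.10, PFKFB2 by 0.73 ± 0.18, the gluconeogenic FBP1 by 0.59 ± 0.07, and PDK4 by 0.39 ± 0.13. Without MOLM13 the FBP1 average was 0.11 (adjusted p = 0.0355), and that of PDK4 missed the threshold without MOLM13 (0.32) or THP1 (0.31). Of 8 pentose phosphate genes, of 9 listed, 4 rose (50%) and 2 fell (25%), RPIA by 0.36 and RPE by 0.19. TKTL1 averaged 2.17 from changes of 4.78 in MOLM13, 5.37 in SKM1 and 5.03 in NOMO1, and it was at or near the floor in both groups of the other 4 lines. The MOLM13 and SKM1 DMSO arrays were at the floor too, so those changes are lower bounds. PGD rose by 0.19 ± 0.03. The shares of these lists can be read against the 51.7% of all genes called, with 23.2% up and 28.6% down.

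HK3 differed between lines, with 4.34 and 5.40 in treated MOLM13 against 2.33 and 2.34 in MOLM13 DMSO, and 9.68 and 10.06 in treated SKM1 against 7.04 and 7.52 in SKM1 DMSO. In GDM1 HK3 was low in all arrays, 2.33 and 2.34 in treated GDM1 against 2.33 and 2.34 in GDM1 DMSO. MYC, which drives many glycolytic genes, fell by 0.49 on average (SE 0.04, adjusted p = 4e-08) and in every line but SHI1. Its signals were 12.86 and 12.99 in treated SKM1 against 13.70 and 13.78 in SKM1 DMSO and 13.44 and 13.70 in treated SHI1 against 13.78 and 13.77 in SHI1 DMSO. In both of these lines the treated MYC arrays lay below the DMSO arrays, and the SHI1 change of -0.20 was not called. Among 10 measured reference genes often used for normalisation, of 14 listed, which include GAPDH and PGK1, 1 rose (10%, background 23.2%) and 4 fell (40%, background 28.6%). The falls were led by HPRT1 (-0.29) and TBP (-0.27), so falls of that size also occurred outside the pathway.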

How the data were processed

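RNA of 7 AML lines was hybridised to Affymetrix U133 Plus 2.0 arrays, 28 in all and 2 per line and treatment. The deposited values are log2 signals per probe set, normalized by the authors. The submitters' processing notes name limma without a version, and for background correction and normalization the steps are not given in the sources used. The values were used as deposited, and 0 per-sample columns were left unused.

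Of 27306 probe sets, the platform annotation gave 1 symbol for 22580, several for 1098 and none for 3628. Probe sets with 1 symbol were reduced to 11676 genes by the highest mean over all arrays, and 22567 symbols were matched by gene identifier. A single limma model (limma 3.58.1, R 4.3.3) with 14 groups and 14 residual degrees of freedom gave each line's change, their average, the F-test of a difference between lines and the F-test across DMSO groups. P-values were adjusted by Benjamini-Hochberg over all genes for each comparison, with calls at an adjusted p under 0.05. The SE of a line change is shared over all groups of a gene, so it does not measure the spread within that line. Over all genes the SD of a single array was 0.30 in treated SKM1 and 0.29 in SKM1 DMSO. In the other groups it ran from 0.16 (SHI1 DMSO) to 0.23 (NOMO1 DMSO). For SKM1 the shared SE and its p-values can therefore understate the spread. The fit was tested on simulated data.

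Signals are given in every array for the 10 called members with the largest average change, the 6 with the smallest F-test p and each line's largest called rise and fall. Other values shown for single members were chosen after they were seen. From the further lists, up to 4 called genes with the largest average change were named, plus MYC. The members and lists were chosen with earlier results of these data known. Alternatives covered normalization, a filter on low values, probe set choice, eBayes settings, a replicate block, separate fits per line, lines as units, and leaving out arrays, replicates and lines. Promoter windows come from RefSeq (GRCh38.p14). No slide or scan batch was available to test.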

Additional observations from a re-analysis of the deposited data

Results flagged for a closer look

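The change with GSK3484862 differed between the lines for 13 members by the limma F-test. The adjusted p was 0.000225 for PGM1, 0.000351 for HK2, 0.00145 for EGLN1 and 0.0115 for PDK1. It was 0.0126 for SLC2A1, 0.0138 for PFKFB3, 0.0196 for VEGFA, 0.0235 for AK4 and 0.0256 for ALDOC. For ERO1A it was 0.0312, for DDIT4 0.0362, for PFKM 0.0363 and for FAM162A 0.0470. Adjusted over all probe sets, FAM162A passed on none of its probe sets (limma F-test, adjusted p = 0.0662 on the one read and up to 0.182 on the others).

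The widest spread was that of ALDOC, with 2.83 in GDM1 and -1.09 in SKM1, followed by DDIT4, with 1.50 in GDM1 and -1.06 in SKM1. AK4 was lower in every line, with -2.56 in SHI1 and -0.26 in SKNO1. SKM1 had the lowest change for PDK1, SLC2A1, VEGFA, ALDOC, DDIT4 and FAM162A, and GDM1 for PGM1 and ERO1A. HK2 was equally low in SKM1 and THP1 (-0.70 each), and its order of lines and that of EGLN1 depended on the probe set. PFKFB3 was highest in SKM1 at 1.04. Groups of 2 arrays are too small for a test of single outlying arrays.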

How the results depend on the processing

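The count of called average changes (18) lay between 14 and 23 under every alternative except those that use 1 value per line or group. With lines as units it was 2, AK4 and NDRG1, with 10 at an unadjusted p under 0.05. Of all 11676 genes 825 were called with lines as units, and 3606 were at an unadjusted p under 0.05, so these counts do not set the members apart. Using only 1 array per group, no gene of the whole series was called by limma, so that setting cannot set the members apart. Leaving out arrays or replicates gave 0 to 23 average calls, 31 to 52 line calls (39 with all arrays), 8 to 21 F-test calls (13) and 40 to 40 DMSO calls. By line these ranges were 5 to 6 in GDM1, 4 to 10 in MOLM13, 8 to 22 in SKM1, 1 to 2 in THP1, 0 to 0 in SKNO1, 0 to 2 in NOMO1 and 1 to 2 in SHI1. Without x_at and s_at probe sets, which left 24 members to test, there were 24 line calls (5 in GDM1, 7 in SKM1, 1 in NOMO1), 5 F-test calls and 24 DMSO calls. Own-array fits made 9 line calls, with 7 in GDM1, 2 in MOLM13 and 0 in SKM1, THP1, SKNO1, NOMO1 and SHI1. Over all genes they called 2349 in GDM1, 2056 in MOLM13, 53 in SKM1, 2 in THP1 and 0 in SKNO1, NOMO1 and SHI1. Without the SKM1 arrays THP1 had 6, SKNO1 2 and NOMO1 6, and without GDM1 the F-test called 7. Means of all probe sets gave 6 in NOMO1, and centred arrays 1 in SHI1. The shares of all genes called are not given for settings other than lines as units, 1 array per group and own-array fits. EGLN1 in GDM1 reversed to 0.0164 on the mean of its probe sets, and the ADM average to 0.15 without SKM1. Apart from shrinking the number of arrays or members tested, the cause was not tested. The replicate block gave 19 average calls, 43 line calls with 1 in SKNO1, 14 F-test calls and 40 DMSO calls. Duplicates with the same number correlated within a line at -0.10 to 0.39, and exceeded 0.1 in SKM1 (0.37), SKNO1 (0.39) and NOMO1 (0.31) but not in the other 4 lines. As not every line did, the numbers were not taken as pairing samples, so any pairing in SKM1, SKNO1 or NOMO1 was left out of the fit. The replicate block was a single shift for all lines, so it did not model a gap particular to SKM1. Pairing within SKM1 was not tested. Leaving out 1 SKM1 array left the replicate numbers unbalanced between treated and DMSO. The SKM1 values without an array therefore hold the gap between duplicates as well as the change. In SKM1, for 4 members whose second array was higher in both groups, treated minus DMSO at the same number was -1.83 and -2.49 for PFKFB4, -0.52 and -1.47 for ADM, -0.77 and -0.67 for P4HA1, and -1.09 and -1.10 for ALDOC. Of 1779 single average values 88 lost and 32 gained a call, and of 473 line values 99 lost it. Members near the floor, such as BNIP3 in SHI1, have changes limited by it.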
